A study of Anas platyrhynchos with 2 samples.

Results

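The family of miR-99, miR-100 and miR-125 was described in small RNA of duodenum taken from Jingjiang ducks, a domestic breed kept for eggs, that were female and 1 day old. Members were the rows whose mature name, without the species prefix and the arm, is miR-99a, miR-99b, miR-100, miR-125a or miR-125b, together with the predicted row novel_36, whose sequence lies close to miR-125b-5p. This rule gave 7 of the 288 mature miRNAs of the table: gga-miR-99a-5p, gga-miR-99a-3p, gga-miR-100-5p, gga-miR-100-3p, gga-miR-125b-5p, gga-miR-125b-3p and novel_36. The prefix gga-, for chicken, is left out below. No row of the table was named miR-99b or miR-125a. The study split 20 ducks into a group that was driven for 8 h over ordinary and bumpy roads, at a speed of 40 to 70 km per h, and controls that were kept in the same kind of carrying case but were not driven. Both groups were of the same breed, sex and age and were held under natural light and temperature. The labels call the tissue of the transported group damaged duodenal mucosa and that of the controls normal duodenum.

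There was 1 library per group, and the number of ducks behind it is not stated in the labels. The libraries are named CT and CC in the table. CT was read as the transported and CC as the control library from the last letter, which no label spells out, so directions are given as CT against CC, and their relation to transport would turn round with that reading. CT held 5272666 counts and CC held 5772509. Levels are in CPM, the count per 1e6 counts of the library. With 1 library per group there is no replicate spread and no test between the groups, and the 95% intervals given with ratios and shares cover counting error only. The labelled tissue was checked on miR-215-5p, a miRNA of intestinal epithelium, which had 435164 CPM in CT and 405612 CPM in CC.

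The miR-99 and miR-100 miRNAs and the miR-125 miRNAs are old animal families that are transcribed together with let-7. In vertebrates miR-99a lies in a cluster with let-7c and a copy of miR-125b, and miR-100 lies in a cluster with let-7a and another copy of miR-125b. Mammals have a further cluster of miR-99b, let-7e and miR-125a. miR-125 is the vertebrate counterpart of lin-4, which with let-7 times larval development in the worm Caenorhabditis elegans. In mammalian cells miR-99a and miR-100 are known to repress the growth kinase MTOR, and miR-125b is known to repress LIN28A, the protein that blocks let-7 maturation. Members of a cluster share a primary transcript, but the mature miRNAs are cut, loaded and degraded separately. In mammals miR-125b is abundant in fibroblasts and muscle.

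The mature sequences are shown to mark which members share a seed, bases 2 to 8 from the 5′ end, the stretch that pairs with target mRNAs. Seeds are in capitals, and the sequences are those of the deposited table, where the named rows carry chicken names.
miR-100-5p: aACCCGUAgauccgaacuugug
miR-99a-5p: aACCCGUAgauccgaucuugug
miR-125b-5p: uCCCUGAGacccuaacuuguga
novel_36: uCCCUGAGacccuaacuugugau
miR-125b-3p: aCAAGUCAggcucuugggaccu
miR-99a-3p: cAAGCUCGcuucuaugggucu
miR-100-3p: aAGCUUGUaucuauagguaug
miR-10a-5p: uACCCUGUagauccgaauuugu
let-7a-5p: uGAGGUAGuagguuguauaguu
let-7c-5p: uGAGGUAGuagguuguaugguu

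The 5p members formed 2 seed groups, miR-99a-5p with miR-100-5p, and miR-125b-5p with novel_36, and no other row of the table had either seed. Each 3p arm had a seed found in no other row. miR-100-5p and miR-99a-5p differed at a single position, A16U, counted from the 5′ end with the base of miR-100-5p first. Reads with a mismatch at that base can be assigned to either of them, and no label or header says how the authors counted such reads. A read that starts at the 5′ end and has 20 or more bases, the lower bound of the gel cut, covers that base. miR-10a-5p, a miRNA encoded among the HOX genes, shares a run of 11 bases with miR-100-5p, guagauccgaa, but it starts at base 7 in miR-10a-5p and at base 6 in miR-100-5p, so the seeds differ. let-7a-5p and let-7c-5p, the let-7 partners of the clusters, differed by A19G, with the base of let-7a-5p first, and share the seed of the let-7 family. No row of the table was complementary to a member over 15 or more bases.

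novel_36 contained all 22 bases of miR-125b-5p and ended in 1 further base. The hairpins listed for both are shown because the last base of novel_36 and the other side of its hairpin tell them apart. Capitals mark the mature miRNAs that the table lists.
mir-125b-2: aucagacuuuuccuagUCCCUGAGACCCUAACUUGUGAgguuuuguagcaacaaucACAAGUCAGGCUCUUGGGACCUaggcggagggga
novel_36: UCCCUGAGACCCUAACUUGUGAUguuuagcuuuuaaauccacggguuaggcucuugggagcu
The base that follows miR-125b-5p in the mir-125b-2 hairpin differs from the last base of novel_36 (G23U, with the mir-125b-2 base first). The extra base of novel_36 therefore matches its own hairpin and not the mir-125b-2 hairpin, whereas reads that end earlier match both. The mir-125b-2 hairpin carries a chicken name, and which hairpin the novel_36 reads came from was not tested. The predicted hairpin of novel_36 lies on the plus strand of scaffold KB743456.1 at bases 102132 to 102241. These are the deposited coordinates, for which the table names no assembly, and the scaffold was not annotated here. The listed span is 110 bases, of which the table gives a sequence of 62. RNAfold gave that sequence a folding energy of -25.9 kcal per mol with 24 base pairs, beside a deposited value of -25.6 for which no unit is stated.

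The 3′ side of the novel_36 hairpin was like miR-125b-3p but not the same. Both are shown with shared bases in capitals.
miR-125b-3p: ACaaGUcAGGCUCUUGGGAcCU
3′ side of the novel_36 hairpin: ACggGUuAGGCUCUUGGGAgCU
They shared 18 of 22 bases, and the differences were A3G, A4G, C7U and C20G, with the base of miR-125b-3p first. These positions are counted from the 5′ end of miR-125b-3p, which aligns with bases 41 to 62 of the novel_36 sequence. The miR-125b-3p row is thus specific to the mir-125b-2 hairpin in sequence, while miR-125b-5p matches both hairpins. No 3p row was used for the novel_36 hairpin.

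miR-100-5p was the most abundant member in both libraries. It had 27674 counts or 5249 CPM in CT, against 37537 counts or 6503 CPM in CC, and stood 21st among all miRNAs in CT and 20th in CC. miR-99a-5p had 10373 counts or 1967 CPM in CT, against 19030 counts or 3297 CPM in CC, and stood 32nd in CT and 24th in CC. miR-125b-5p had 4704 counts or 892 CPM in CT, against 6734 counts or 1167 CPM in CC. The order of these 5p members was the same in CT and CC, and each was lower in CT.

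The other members were far less abundant. novel_36, the predicted row with the miR-125b seed, had 323 counts or 61.3 CPM in CT, against 366 counts or 63.4 CPM in CC. miR-125b-3p, from the opposite arm of mir-125b-2, had 429 counts or 81.4 CPM in CT, against 521 counts or 90.3 CPM in CC. The opposite arms of the seed partners were nearly unseen. miR-99a-3p had 9 counts in CT and 11 in CC, and miR-100-3p had 1 count in each library, so neither gives a usable ratio (CT over CC 0.896, interval 0.328 to 2.38, and 1.09, interval 0.0139 to 85.9).

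**Figure D1:**
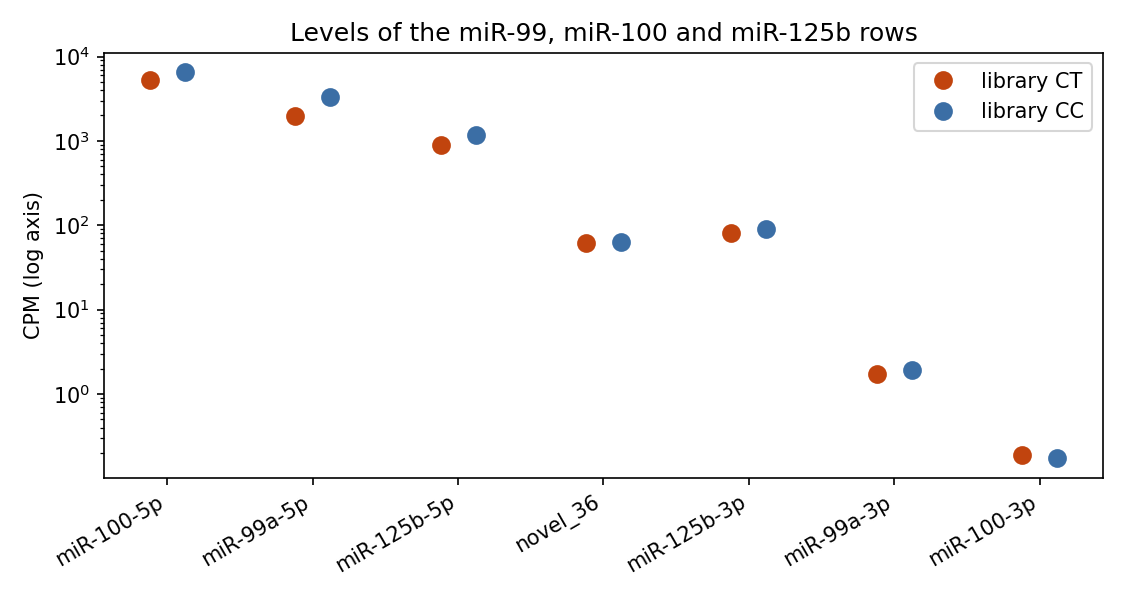
Level of each member in CPM on a log axis, with CT on the left and CC on the right of each name. The 5p arms of miR-100, miR-99a and miR-125b lie between 892 and 5249 CPM in CT and between 1167 and 6503 CPM in CC, and each is lower in CT, whereas novel_36 and the 3p arms lie under 100 CPM.

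The 7 members together took 0.825% of the counts in CT (exact binomial interval 0.818 to 0.833%) and 1.11% in CC (1.10 to 1.12%). Within this sum the shares differed between the libraries. miR-100-5p made up 63.6% of the member counts in CT (63.1 to 64.1%) and 58.5% in CC (58.1 to 58.9%). miR-99a-5p made up 23.8% in CT (23.4 to 24.2%) and 29.6% in CC (29.3 to 30.0%), and miR-125b-5p made up 10.8% in CT (10.5 to 11.1%) and 10.5% in CC (10.3 to 10.7%). The share of miR-100-5p was larger and that of its seed partner miR-99a-5p smaller in CT, and the intervals of the miR-125b-5p share overlapped.

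Of the 7 members, 5 had at least 50 counts over both libraries, and none of these 5 was 2-fold apart between CT and CC. Among all 149 miRNAs with that many counts 7.38% were at least 2-fold apart. All 5 members also had 500 or more counts, and of the 99 miRNAs with that many 3.03% were 2-fold apart. The lack of a 2-fold member thus sets the members apart from neither set. miR-99a-5p was 1.68-fold lower in CT (exact interval 1.64 to 1.72) and was the 1 member at least 1.5-fold lower, beside 7.38% of the 149. It stood 7th from the lowest log2 ratio. miR-125b-5p was 1.31-fold lower (1.26 to 1.36) and stood 27th, and miR-100-5p was 1.24-fold lower (1.22 to 1.26) and stood 34th.

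For miR-125b-3p and novel_36 the intervals held equal levels. miR-125b-3p had a log2 ratio of -0.15 (-0.34 to 0.04) and novel_36 of -0.05 (-0.27 to 0.17). By point estimate all 5 members were on the lower side in CT, beside 47.0% of the 149. With library totals that omit the 10 most abundant miRNAs it was 4 of 5, beside 42.3% of the 149, and novel_36 was at 0.01. miR-125b-5p and miR-125b-3p are arms of a listed hairpin, and novel_36 holds the whole miR-125b-5p sequence, so the 5 are not independent. With TMM scaling 53.7% of the 149 were lower in CT, and with size factors 55.0%, in both cases beside 5 of 5 members. The intervals of 3 of the 5 lay below a ratio of 1, beside 33.6% of the 149. That count depends on abundance, since an interval narrows with the number of counts. The median log2 ratio of the 5 members was -0.31, with a range of -0.74 to -0.05, and that of the 149 was 0.02, with quartiles of -0.25 and 0.36. Over all 7 members, which brings in the 3p arms of miR-99a and miR-100 with their few counts, the median was -0.16. It was 0.06 over the 253 miRNAs with at least 1 count in each library. The value of -0.16 is that of miR-99a-3p itself, a row with 9 counts in CT and 11 in CC and no usable ratio. Over miR-99a-5p, miR-100-5p and miR-125b-5p alone the median was -0.39.

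**Figure D2:**
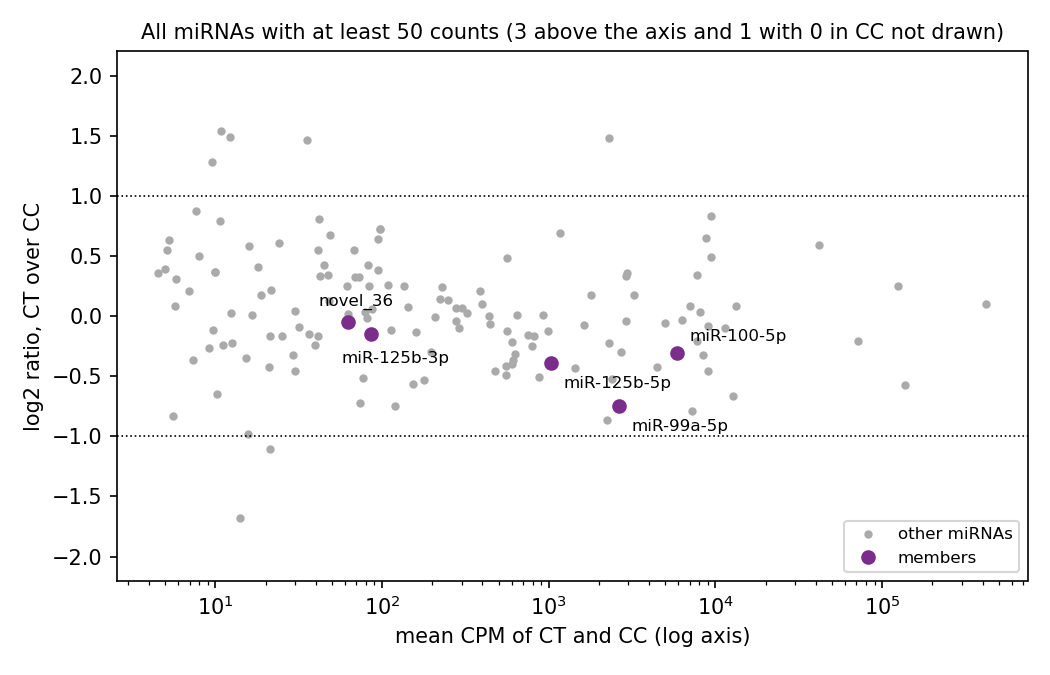
Log2 ratio of CT to CC against the mean CPM of both libraries (log axis), for miRNAs with at least 50 counts. Dotted lines mark a 2-fold difference, members are purple, 3 miRNAs lie above the axis, and 1 with 0 counts in CC has no finite ratio. All 5 members lie between the dotted lines, with miR-99a-5p the lowest at -0.74.

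The members of a seed group did not differ by the same amount. The number of miR-100-5p counts per miR-99a-5p count was 2.67 in CT (2.61 to 2.73) and 1.97 in CC (1.94 to 2.01), a ratio of CT to CC of 1.35 (1.31 to 1.39). Such a ratio within a library does not depend on how the libraries are scaled. It compares libraries for a given pair, while its absolute size also reflects how well each miRNA is ligated and amplified. Summed over their common seed, miR-99a-5p and miR-100-5p had 7216 CPM in CT and 9799 CPM in CC, a 1.36-fold lower level in CT (1.34 to 1.38).

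Relative to miR-125b-5p, the seed partners lay on opposite sides. There were 5.88 miR-100-5p counts per miR-125b-5p count in CT (5.70 to 6.07) and 5.57 in CC (5.43 to 5.72), a ratio of CT to CC of 1.06 (1.01 to 1.10). For miR-99a-5p there were 2.21 per miR-125b-5p count in CT (2.13 to 2.28) and 2.83 in CC (2.75 to 2.91), a ratio of 0.780 (0.747 to 0.816). The proportion of miR-100-5p to miR-125b-5p was close in CT and CC, and miR-99a-5p was lower in CT relative to both. Taken by seed, miR-99a-5p and miR-100-5p together had 7.57 counts per count of miR-125b-5p and novel_36 in CT (7.35 to 7.80) and 7.97 in CC (7.77 to 8.17).

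Within the miR-125b seed group, novel_36 was close to equal in the libraries while miR-125b-5p was not. There were 14.6 miR-125b-5p counts per novel_36 count in CT (13.0 to 16.4) and 18.4 in CC (16.6 to 20.5), a ratio of CT to CC of 0.792 (0.678 to 0.924). novel_36 and miR-125b-3p, of like abundance, kept their proportion within counting error, at 0.753 novel_36 counts per miR-125b-3p count in CT (0.650 to 0.872) and 0.702 in CC (0.613 to 0.805). The sum of miR-125b-5p and novel_36 was 953 CPM in CT and 1230 CPM in CC, 1.29-fold lower in CT (1.24 to 1.34).

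In each hairpin with both arms listed the 5p arm dominated. The 3p arm took 0.00361% of the mir-100 counts in CT (exact interval 9.15e-05 to 0.0201%) and 0.00266% in CC (6.74e-05 to 0.0148%). For mir-99a the 5p arm took 99.91% in CT (99.84 to 99.96%) and 99.94% in CC (99.90 to 99.97%). The mir-125b-2 hairpin had a larger share on the 3p arm, 8.36% in CT and 7.18% in CC, with the 5p share at 91.6% in CT (90.9 to 92.4%) and 92.8% in CC (92.2 to 93.4%), intervals that overlapped.

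The 5p share of mir-125b-2 thus differed by -1.18 percentage points, CT minus CC, which was the 21st largest among 70 hairpins that had rows for both arms and 50 or more counts, whose median absolute difference was 0.315 points. The same comparison as a ratio of counts gave 11.0 miR-125b-5p counts per miR-125b-3p count in CT (9.93 to 12.1) and 12.9 in CC (11.8 to 14.2), and the ratio of CT to CC was 0.848 (0.743 to 0.969). Its interval excluded 1 although the separate intervals met. The intervals of the 5p share lay apart for 9 of the 70 hairpins, and mir-125b-2 was not among them. The place among the 70 takes no account of depth. The largest difference was that of mir-301b, with 27 and 9 counts on its 5p and 3p arms in CT and 18 and 13 in CC. The mir-125b-2 share is that of a single hairpin only if the 5p counts come from mir-125b-2. The identity of the first 22 bases of novel_36 shows that some may not. With novel_36 counted as 5p the share was 92.1% in CT and 93.2% in CC. That count can only raise the share, and it gives the arm share of no single hairpin.

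The let-7 partners of the clusters differed less between the libraries than miR-99a-5p, miR-100-5p and miR-125b-5p did. let-7a-5p, which shares a cluster with miR-100 but is also made from other let-7a copies, had 4892 CPM in CT and 5077 CPM in CC, a log2 ratio of -0.05 (-0.08 to -0.03) that was 0.01 with totals without the 10 most abundant miRNAs. let-7c-5p, the partner of miR-99a, had 765 CPM in CT and 860 CPM in CC, a log2 ratio of -0.17 (-0.23 to -0.11). Beside them, miR-99a-5p was at -0.74 and miR-100-5p at -0.31. In CT, 5 of the 7 let-7 5p rows with enough counts were lower and 2 higher, and with those totals 4 were lower and 3 higher. The log2 ratios of the 7 ran from -0.36 for let-7k-5p to 0.09 for let-7g-5p.

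Set against their own partner, both miR-99a and miR-100 were lower in CT. miR-99a-5p had 2.57 counts per let-7c-5p count in CT (2.48 to 2.67) and 3.84 in CC (3.72 to 3.96), a ratio of CT to CC of 0.670 (0.639 to 0.703). miR-100-5p had 1.07 counts per let-7a-5p count in CT (1.05 to 1.09) and 1.28 in CC (1.26 to 1.30), a ratio of 0.838 (0.819 to 0.857). miR-125b-5p, which can come from either cluster, was lower against let-7c-5p (ratio of CT to CC 0.859, 0.813 to 0.909) and against let-7a-5p (0.794, 0.762 to 0.827).

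The let-7 partners themselves stood at 6.39 let-7a-5p counts per let-7c-5p count in CT (6.19 to 6.61) and 5.91 in CC (5.73 to 6.09). The ratio of CT to CC was 1.08 for this pair (1.04 to 1.13), beside 1.35 for miR-100-5p per miR-99a-5p (1.31 to 1.39). The arms that name a single let-7 copy had too few counts to follow the clusters, with 7 counts in CT and 9 in CC for let-7a-2-3p and 5 in CT and 4 in CC for let-7c-3p. Over all 8 let-7 5p rows the sum was 38770 CPM in CT and 38942 CPM in CC, a ratio of 0.996 (0.990 to 1.002). Against that sum the ratio of CT to CC was 0.599 for miR-99a-5p (0.585 to 0.614), 0.768 for miR-125b-5p (0.740 to 0.798) and 0.811 for miR-100-5p (0.797 to 0.824).

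**Figure D3:**
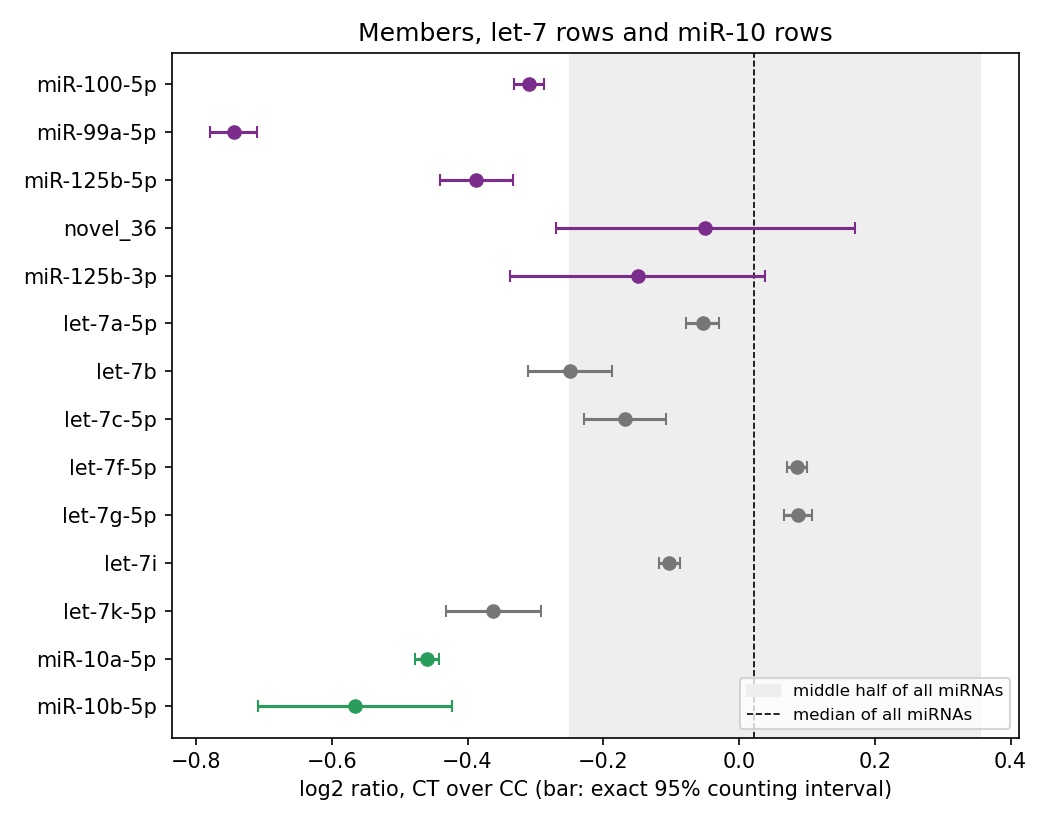
Log2 ratio of CT to CC with exact 95% counting intervals for the 5 members with at least 50 counts (purple), 7 let-7 rows (grey) and both miR-10 5p rows (green). The shaded band and the dashed line are the quartiles and the median of all 149 miRNAs. miR-99a-5p lies at -0.74, and its let-7 partner let-7c-5p at -0.17.

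**Figure D4:**
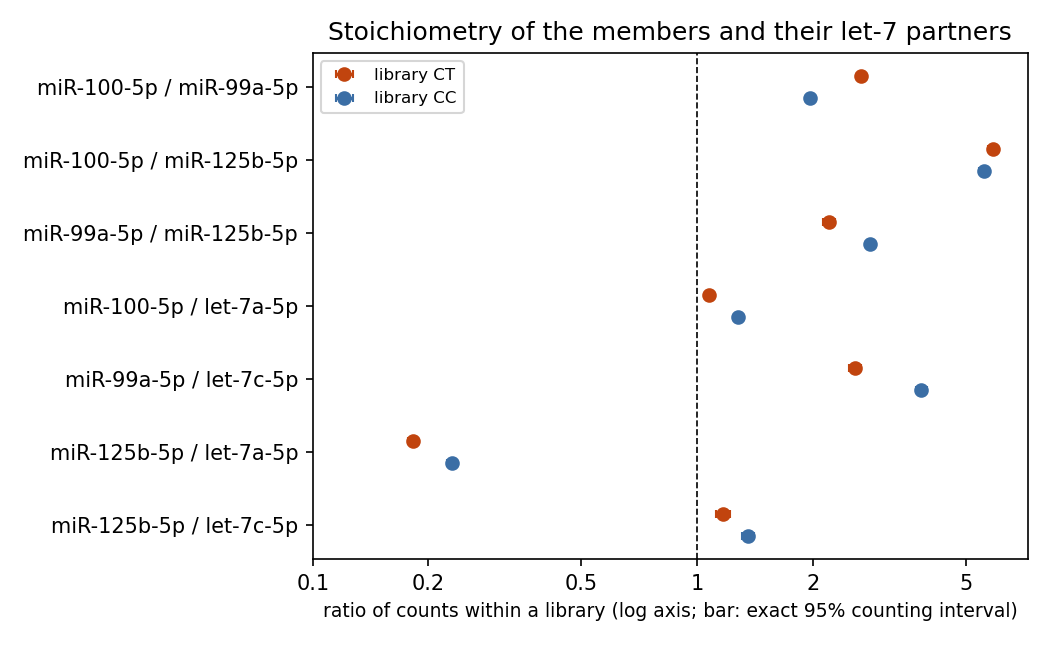
Counts of the first miRNA per count of the other within a library, on a log axis, with CT above CC in each row and exact 95% counting intervals. miR-100-5p per miR-99a-5p is 2.67 in CT and 1.97 in CC, while miR-99a-5p per let-7c-5p is 2.57 in CT and 3.84 in CC.

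The miR-10 miRNAs, related in sequence to miR-100 and encoded at other loci, had a level and a difference like those of the miR-99a and miR-100 sum. miR-10a-5p had 7623 CPM in CT and 10484 CPM in CC, a log2 ratio of -0.46 (-0.48 to -0.44), and miR-10b-5p had 123 CPM in CT and 182 CPM in CC, at -0.57 (-0.71 to -0.42). The sum of miR-99a-5p and miR-100-5p per count of the miR-10 sum was 0.932 in CT (0.919 to 0.945) and 0.919 in CC (0.908 to 0.929), with a ratio of CT to CC of 1.01 (0.996 to 1.03). Taken singly, miR-99a-5p per miR-10a-5p was lower in CT (0.821, 0.799 to 0.843) and miR-100-5p per miR-10a-5p higher (1.11, 1.09 to 1.13). The predicted row novel_67 has the miR-10 seed and 71 counts in CT and 167 in CC. The row novel_130 has the let-7 seed and 52 counts in CT and 31 in CC.

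Among the 94 other miRNAs with 500 or more counts in all, those with the log2 ratio nearest to a member were taken as most like it, a measure that rests on 1 ratio of 2 libraries. Nearest to miR-99a-5p were miR-214, miR-455-5p, miR-126-3p, miR-146b-5p and miR-218-5p, with log2 ratios of -0.74, -0.73, -0.79, -0.67 and -0.86. Nearest to miR-100-5p were novel_30, miR-199-5p, miR-140-5p, miR-26a-5p and let-7k-5p, with log2 ratios between -0.36 and -0.30. Nearest to miR-125b-5p were novel_31, let-7k-5p, miR-181a-5p, miR-1a-3p and miR-128-3p, between -0.43 and -0.36.

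Summed marker miRNAs of several cell types were lower in CT like the members, though not in every row. In these bulk libraries fewer cells of a type and less RNA per cell cannot be told apart. The labels also name the tissue differently in the groups, damaged duodenal mucosa and normal duodenum. A difference in the tissue taken can thus not be told apart from transport. The stromal list, with 3 of 3 names matched in 4 rows, summed to 6209 CPM in CT and 8477 CPM in CC (log2 ratio -0.45), and 4 of 4 rows were lower in CT. The endothelial list, both arms of miR-126, summed to 5451 CPM in CT and 9301 CPM in CC (-0.77). That sum was nearly all miR-126-3p (-0.79), while miR-126-5p was at -0.13 with an interval that held equal levels (-0.27 to 0.01). The muscle list, with 6 of 8 names matched (miR-143 and miR-145 were not), summed to 6638 CPM in CT and 8873 CPM in CC (-0.42), with 4 of 5 rows of enough counts lower. That sum was mostly miR-1a-3p (-0.42) and miR-1b-3p (-0.52), while miR-133a-3p was at -0.16. The intervals of miR-133c-3p at -0.12 (-0.28 to 0.04) and of miR-133b at 0.41 (-0.01 to 0.83) held equal levels. miR-206 of this list had 0 counts in CT and 1 in CC, too few for a direction. The white blood cell list was divided. It summed to 797 CPM in CT and 1011 CPM in CC (-0.34), with miR-181a-5p the largest part at 476 CPM in CT and 635 CPM in CC, and 4 of 6 rows of enough counts were lower. Both arms of miR-142, found across blood cell lineages, were higher in CT, with log2 ratios of 0.33 for miR-142-3p (0.13 to 0.53) and 0.34 for miR-142-5p (0.09 to 0.60). miR-223 lay the other way, with 56 counts in CT and 121 in CC, a log2 ratio of -0.98 (-1.46 to -0.51).

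Epithelial and pancreatic markers lay the other way. The intestinal epithelial list, with 6 of 7 names matched (miR-192 was not), summed to 509252 CPM in CT and 453526 CPM in CC (log2 ratio 0.17), with 7 of 8 rows higher in CT. That sum was mostly miR-215-5p, at 0.10. miR-194 was at 0.59, miR-200a-3p at 0.65, miR-200b-3p at 0.83, miR-31-5p at 0.67 and miR-429-3p at 0.49. miR-200b-5p was at 0.13 with an interval that held equal levels (-0.13 to 0.38). The row lower in CT was miR-200a-5p, at -0.13. The pancreatic list, with 5 of 5 names matched, summed to 5928 CPM in CT and 1261 CPM in CC (2.23), with miR-216c at 0 in CC. In CC that sum was nearly all miR-375, at 1206 CPM, whose log2 ratio was 1.48. The other rows differed more. miR-217-5p had 10523 counts in CT and 217 in CC, miR-216b had 2629 and 96, and miR-216a had 204 and 3. The red blood cell list had 10 counts in CT and 19 in CC in all, and miR-122-5p of liver had 207 CPM in CT and 209 CPM in CC. The part of any of these cell types in the levels of the members was not tested.

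**Figure D5:**
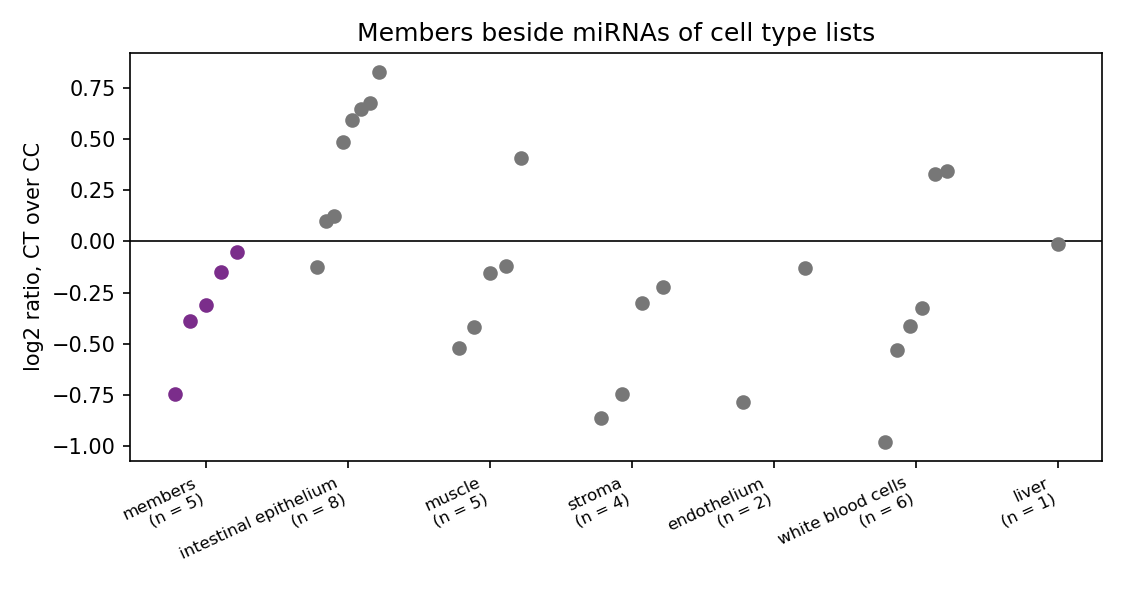
Log2 ratio of CT to CC of the 5 members with at least 50 counts (purple) beside rows of the cell type lists with that many counts (grey), each point 1 miRNA, sorted within its list. The pancreatic list is not drawn because it reaches far above the axis, and the red blood cell list has no such row. The members (except novel_36 with totals that omit the 10 most abundant miRNAs) and all 4 stromal rows lie below 0, and 7 of 8 epithelial rows lie above it.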

How the data were processed

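Total RNA was extracted with Trizol, RNA of 20 to 30 nt was cut from a 15% TBE-urea gel loaded with 10 µg, and libraries followed Illumina protocols, per the labels' protocols. The aligner, the hairpin predictor, the miRNA database and the build were not given in the sources used here. Per the file headers, the authors deposited a read count and a TPM value for each mature miRNA and library, and a folding energy, a score with no stated unit, for predicted hairpins. The deposited TPM equals the count per 1e6 counts of the library within 4.3e-05, holds no length term and is called CPM. Of the 288 rows, 246 carry chicken names, and a duck miRNA that differs from the chicken sequence can lose counts.

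Every ratio was computed from counts. Ratios of CT to CC and ratios within a library have exact conditional (Clopper-Pearson) 95% intervals, shares exact binomial ones, and a CT to CC ratio of 2 within-library ratios a normal interval on the log scale. Intervals cover counting error of reads only. No molecular identifiers are mentioned, so reads copied in amplification cannot be told apart here, and the intervals may be too narrow. miRNAs with 50 or more counts summed over CT and CC were compared, and a 2-fold ratio was the rule of size. All members are named. Relatives, cell type lists and the 5 nearest miRNAs followed written rules, and members and lists were chosen with earlier results of these data known. Scaling was repeated with edgeR 4.0.16 (TMM), DESeq2 1.42.0 (size factors by the median of ratios) and totals without the 10 most abundant miRNAs or without miR-216 and miR-217. Intervals were tested on simulated data that held counting error only, so spread between ducks or libraries was not covered. Python 3.11.15, scipy 1.17.1, R 4.3.3 and ViennaRNA 2.7.2 were used.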

Additional observations from a re-analysis of the deposited data

How the results depend on the processing

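Of 59 values recomputed under other settings, 42 stayed within their interval, their spread or 1.5 times the count, and 17 moved. This tally does not measure robustness. The scalings shift log2 ratios too little to take novel_36 and the 3p arms out of their wide intervals. Another let-7 denominator in place of let-7a-5p must move a ratio. Under all settings, no member whose interval excluded equal levels changed sign. The scaling shifts given below are smaller than each log2 ratio of these members, so no scaling could have changed a sign. The log2 ratio of miR-99a-5p was -0.79 with TMM, -0.81 with size factors and -0.69 with totals without the 10 most abundant miRNAs. That of miR-100-5p was -0.35, -0.37 and -0.25 in the same order. The value for miR-125b-5p was -0.45 with size factors and -0.33 with those totals. These moves follow from the scaling itself, which shifts all log2 ratios by -0.05, -0.06 and 0.06. Over all rows with enough counts, 11 of 149 miRNAs passed 2-fold (7.38%). With no minimum beyond 1 count in each library 46 of 253 did (18.2%), and from 500 counts upward 3 of 99 did (3.03%). The 1.5-fold rule was passed by 33 of the 149 (22.1%). The sum of miR-99a-5p and miR-100-5p per miR-125b-5p count was 8.09 in CT and 8.40 in CC. With novel_36 counted as miR-125b-5p it moved to 7.57 in CT and 7.97 in CC. Per let-7c-5p count, miR-100-5p stood at 6.86 in CT and 7.56 in CC, and per count of the let-7 sum at 0.135 in CT and 0.167 in CC. No paired analysis was possible because each group has 1 library. Depth limits the 3p arms of miR-99a and miR-100, with at most 11 counts in a library.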
